A study of Mus musculus with 48 samples.

Results

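The comparison described here is that of the natural killer (NK) fraction of a conditional Bach2 knockout experiment. It sets the 3 libraries titled cKO NK against the 3 titled cWT NK, which are 6 of the 48 libraries of the series. All were taken by their titles, and the comparison covers every gene with enough reads to test. The cKO animals are labelled Bach2flox/flox Ncr1Cre and the cWT animals Ncr1Cre, so both groups carry a Cre recombinase that Ncr1 drives in NK cells and some other innate lymphocytes. RNA came from NK cells of the spleen, no treatment was given, and ages, sexes, the sorting gate of the NK fraction and the exon between the loxP sites are not given in the sources used here. The same experiment holds 18 libraries of the sorted fractions iNK, mNK1 and mNK2. Elsewhere in the series are 8 libraries of NK cells with a germline deletion (Bach2-KO) or WT NK cells from spleens of mixed bone marrow chimeras, and 16 libraries of iNK, mNK1, KLRG1- mNK2 and KLRG1+ mNK2 cells of WT animals.

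BACH2 is a repressor of the basic leucine zipper family that pairs with small MAF proteins and binds DNA elements which contain the recognition sequence of AP-1. In T cells it is known to limit AP-1 driven genes and to hold cells in a quiescent, stem-like state, and it is sensitive to heme. NK cells of the mouse spleen pass from a stage with CD27, KIT and TCF1 to a late stage with KLRG1 and abundant granzyme B. In RNA of a sorted population, a larger share of late cells and more transcript per cell cannot be told apart.

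Expression of 70 genes differed between the genotypes, and the direction of most of them is that of normal maturation, as read below from WT cells. The granule protease gene Gzmb, the inhibitory receptor genes Klrg1 and Klrb1b and Entpd1, which encodes the ATP-degrading enzyme CD39, were higher in cKO libraries by 1.67-fold to 2.13-fold. Tcf7, Myb, Kit, Cd27, Bcl2 and Tnfsf8, genes of early or stem-like lymphocytes, were lower. Of these, Gzmb, Entpd1 and Tcf7 are the 3 genes chosen to mark the comparison. Earlier results of these data were known when it was chosen, so their directions are not added evidence.

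Promoter sequence is shown first for the higher genes that carry the AP-1 core sequence near their start, because that is the sequence BACH2 and AP-1 can both bind. The letters searched were TGAGTCA and, for the other strand, TGACTCA, over RefSeq windows from 250 bases before to 50 bases after a gene's start (build GRCm38.p6, 300 bases, 5′ to 3′ on the gene's strand). The windows hold at least 1 match in 5 of the 26 higher genes that have a window (19.2%), in 0 of 28 lower genes and in 432 of 9835 tested genes (4.39%). A match is a run of letters and not a measured binding site. Capitals mark each match. The windows of Gzmb (chr14:56262285-56262584, minus strand) and Srxn1 (chr2:152105274-152105573, plus strand) are given whole, with matches that begin 58 bases before the start in Gzmb and, for the first of 2, 102 bases before it in Srxn1. For Tnfaip3 (chr10:19015513-19015573, minus strand), Emp1 (chr6:135362759-135362819, plus strand) and Heatr9 (chr11:83522212-83522272, minus strand) the 61 bases around the match are given, which begins 136, 145 and 146 bases before the start.
Gzmb: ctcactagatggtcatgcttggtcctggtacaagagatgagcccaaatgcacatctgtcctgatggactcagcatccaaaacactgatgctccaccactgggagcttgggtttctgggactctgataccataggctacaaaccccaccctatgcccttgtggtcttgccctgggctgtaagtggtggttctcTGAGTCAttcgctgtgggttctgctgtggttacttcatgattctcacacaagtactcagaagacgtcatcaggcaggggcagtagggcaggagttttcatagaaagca
Srxn1: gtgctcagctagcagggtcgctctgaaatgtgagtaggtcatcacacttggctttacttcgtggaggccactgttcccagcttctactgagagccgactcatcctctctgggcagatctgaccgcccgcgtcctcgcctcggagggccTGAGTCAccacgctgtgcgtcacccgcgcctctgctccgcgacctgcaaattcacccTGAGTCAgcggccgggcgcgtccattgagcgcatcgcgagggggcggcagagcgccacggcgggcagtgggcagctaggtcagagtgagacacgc
Tnfaip3: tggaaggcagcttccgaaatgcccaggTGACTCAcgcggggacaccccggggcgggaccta
Emp1: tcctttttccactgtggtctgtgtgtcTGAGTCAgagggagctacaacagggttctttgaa
Heatr9: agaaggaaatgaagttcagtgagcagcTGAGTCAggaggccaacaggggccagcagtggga

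The targeted gene was read first. Bach2 reached 18.6, 20.7 and 23.4 CPM (reads scaled to a shared library size) in the libraries labelled cKO, against 13.2, 9.82 and 18.8 CPM in those labelled cWT. The ranges overlap at their edge, and the means were 20.9 ± 2.38 and 13.9 ± 4.53 CPM (SD, n = 3 each). The log2 fold change of 0.58 ± 0.22 (SE) did not pass the test (edgeR quasi-likelihood, adjusted p = 0.375, unadjusted p = 0.0155). Bach2 was also higher in cKO libraries of each sorted fraction, without overlap. The ranges were 17.1 to 23.8 against 11.7 to 15.9 CPM in iNK and 19.4 to 30 against 10.2 to 15.3 CPM in mNK1. In mNK2 they were 15.1 to 24.6 against 10.9 to 13.4 CPM. None of these passed the same test (adjusted p = 0.552 in iNK, 0.0776 in mNK1 and 0.442 in mNK2). In the chimeras, where the deletion is of the germline, Bach2 averaged 2.11 ± 0.926 CPM in KO and 15.5 ± 2.21 CPM in WT NK cells (SD, n = 4 each). Counts over the whole gene do not show whether a short floxed exon is missing, so these counts do not check the cKO label. The genotypes are used below as labelled, and every direction rests on the labels.

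**Figure D1:**
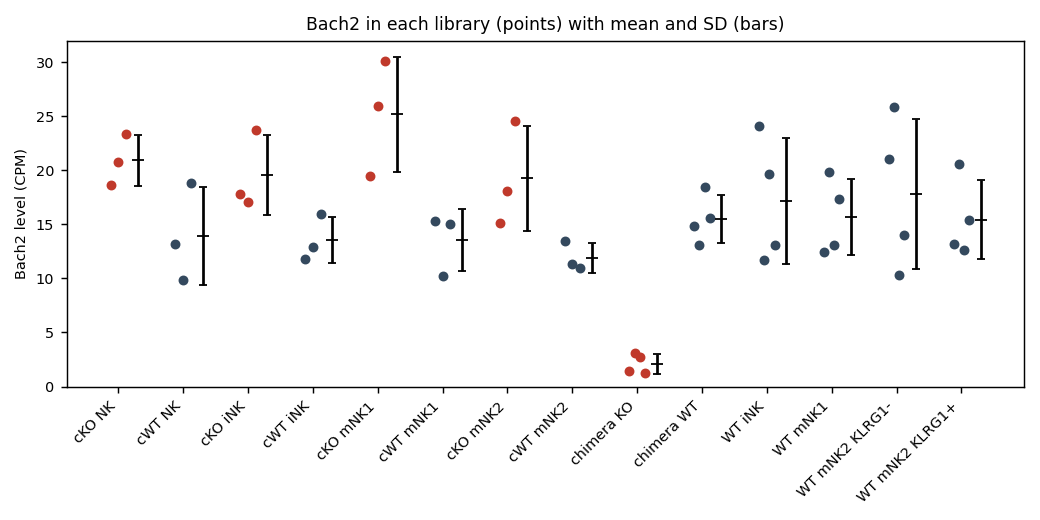
Bach2 level (CPM, y axis) in each library of all 14 groups (x axis), with the mean and SD as a bar beside the points. The 3 cKO NK libraries lie between 18.6 and 23.4 CPM and the 3 cWT NK libraries between 9.82 and 18.8 CPM, while the chimera KO group is at a mean of 2.11 CPM.

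The gene that drives Cre was not level between the groups. Ncr1, which encodes the activating receptor NKp46, reached 1569, 1550 and 1578 CPM in cKO NK libraries, against 229, 198 and 826 CPM in cWT NK libraries. The groups do not overlap, the cKO libraries lie within a narrow range, and cWT replicate 3 stands apart from the other cWT libraries. The mean was 1570 ± 14.1 CPM in cKO and 418 ± 354 CPM in cWT (SD, n = 3 each). With that spread among cWT libraries, the log2 fold change of 1.91 ± 0.75 did not pass the test (edgeR, adjusted p = 0.417). Replicate 3 was also the highest cWT library in each sorted fraction: cWT replicates 1, 2 and 3 were at 78.6, 56.1 and 351 CPM in iNK, at 160, 182 and 788 CPM in mNK1, and at 342, 279 and 1129 CPM in mNK2. In cKO fractions Ncr1 averaged 540 ± 48.6 CPM in iNK, 1310 ± 59.1 CPM in mNK1 and 2290 ± 202 CPM in mNK2. It averaged 2050 ± 178 CPM in KO and 1810 ± 172 CPM in WT cells of the chimeras (n = 4 each), which were scaled apart. The number of Ncr1Cre copies per animal is not given in the labels. The part of this difference in the results below was not tested.

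The 6 libraries held 15460395 to 21029172 counted reads and 13476 to 13625 gene symbols with a read, and a count of 3 stood for 0.133 to 0.188 CPM. Of 14 genes that define NK cells, among them Klrb1c, Klrd1, Tbx21 and Prf1, 0 were called, beside 39 higher and 31 lower of all 12258 genes tested. Their summed level was 32100 to 41700 CPM in cKO and 29600 to 36100 CPM in cWT libraries. Marker sums of B cells (179 to 200 CPM in cKO, 183 to 198 CPM in cWT) and T cells (304 to 345 and 334 to 422 CPM in the same order) were small beside it. The 11 erythroid and platelet markers summed to 36.6 to 45.7 CPM in cKO and 33.1 to 65.4 CPM in cWT. Among them, the 3 hemoglobin genes Hba-a1, Hbb-b1 and Hbb-bs were at 0 in all 6. Neutrophil markers summed to 3.02 to 27.1 CPM in cKO and 13.7 to 54.4 CPM in cWT, with S100a9 counts of 0, 15 and 0 in cKO and of 76, 19 and 79 in cWT. The leading axis of variation among the 6 libraries, with 45% of the variance, did not follow genotype: cKO replicates 1 and 2 and cWT replicate 2 lay on one side, and cKO replicate 3 with cWT replicates 1 and 3 on the other. Of its 30 leading genes 23 encode ribosomal proteins. On the second axis, with 17.2% of the variance, the genotypes did not overlap. There cKO replicates 1, 2 and 3 lay at 1.43, -7.94 and -22, and cWT replicates 1, 2 and 3 at 13.7, 9.47 and 5.31. As a percent of scaled CPM, the 78 ribosomal protein genes tested summed to 0.847, 1.10 and 1.66% in cKO and 2.13, 1.10 and 1.73% in cWT.

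Of 12258 genes tested, 39 were higher in cKO (0.318% of those tested) and 31 lower (0.253%) at an adjusted p under 0.05 by the edgeR quasi-likelihood test. These shares are the background for each list count in this report. At them, 0 calls in lists as short as those used here is not a result about the list. At an unadjusted p under 0.05 the number of genes was 1104. By 2-fold or more, 9 were higher and 10 lower, and the median log2 fold change over all tested genes was 0.004. The libraries of the 2 genotypes did not overlap for any of the 70, against 1313 genes, or 10.7%, of all tested. The spread in this test was estimated from all conditional libraries, sorted fractions included, with each library treated as independent. With the 6 NK libraries alone, 11 of the 69 called genes tested there kept their call. In the full fit the number of calls fell to 36 without cWT replicate 1, to 44 without cKO replicate 1 and to 44 without cWT replicate 3. In all 6 fits with a library left out, 23 of the 70 were called, among them Gzmb, Ttc39c, Rgs1, Klrb1b, Entpd1, Kcnj8, Gpc1, Ptger4, Meis3 and Tnfaip3 of the higher genes, and Tcf7, Crtam, Serpine2, Emb, Tnfsf8, Kit, Myb, Bcl2, Phlda3, Rgs13, Smyd2 and Srm of the lower. With the ribosomal protein level as a covariate, a choice made after the leading axis was seen, 69 of the 70 were called. Irf8 was not (edgeR, log2 fold change 0.59, adjusted p = 0.0696).

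**Figure D2:**
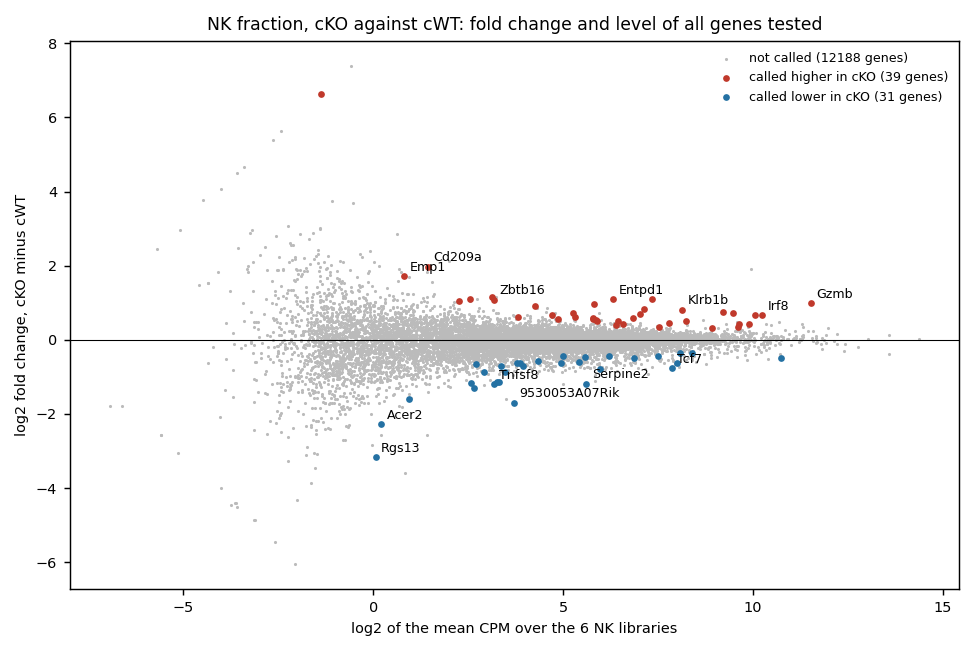
Log2 fold change (cKO minus cWT, y axis) against the log2 mean CPM over the 6 NK libraries (x axis) of every gene tested, with 39 genes called higher in red and 31 called lower in blue. Gzmb has the highest mean CPM of the called genes, and the steepest changes, such as that of Rgs13, belong to genes near the detection floor.

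Cytotoxic granule genes changed in a few members. Gzmb, the granule protease that cleaves caspases in target cells, was at 4332, 3978 and 3543 CPM in cKO against 1884, 2230 and 1859 CPM in cWT. Every cKO library lies well above every cWT library, and Gzmb had the smallest p of all genes (log2 fold change 0.99 ± 0.10, adjusted p = 1.53e-05). Fasl, the death ligand that engages FAS, was the other of 2 higher genes among 19 granule and death-ligand genes, at 556, 531 and 534 CPM in cKO against 417, 475 and 402 CPM in cWT (0.33 ± 0.07, adjusted p = 0.0313). The other 17 were not called, and the list's median log2 fold change was 0.04, beside 0.004 for all genes. Gzma, the other main granule protease, averaged 12800 ± 3730 CPM in cKO and 11600 ± 2040 CPM in cWT (log2 fold change 0.14, adjusted p = 0.916). Perforin (Prf1) averaged 2870 ± 636 and 2240 ± 371 CPM in the same order (0.36, adjusted p = 0.459), so its groups overlap. Serpinb9, the intracellular inhibitor of granzyme B, rose with its target protease: 1201, 1097 and 1001 CPM in cKO against 766, 893 and 771 CPM in cWT (0.44 ± 0.09, adjusted p = 0.0215). Sytl2, a RAB27 effector in granule release, rose to 102 ± 10.8 CPM in cKO against 71.0 ± 4.66 CPM in cWT. Fasl and Serpinb9 lost their call in at least 4 of the 6 fits with a library left out.

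Of 16 cytokine and chemokine genes 0 passed the test by edgeR, beside 0.318% of all genes called higher and 0.253% lower. At those shares 0 calls is not a result about secreted mediators. The median log2 fold change of the 16 was -0.02. Ifng, the main effector cytokine of NK cells, stood at 720, 893 and 1054 CPM in cKO against 571, 682 and 667 CPM in cWT. The cKO libraries all lie above the cWT libraries, but the difference of 0.47 ± 0.16 on the log2 scale did not pass (adjusted p = 0.317). Ccl3 (2890 ± 843 CPM in cKO, 2140 ± 478 CPM in cWT), Ccl4 (1910 ± 723 and 1380 ± 359 CPM) and Ccl5 (2430 ± 1480 and 2450 ± 1250 CPM) overlapped between the groups.

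Receptors of the lectin-like family gave 3 higher and 0 lower genes of 22 tested, with a median log2 fold change of 0.03. Klrg1, an inhibitory receptor for cadherins and a marker of the last maturation stage, was at 742, 709 and 765 CPM in cKO against 429, 512 and 383 CPM in cWT (0.74 ± 0.15, adjusted p = 0.027). Klrb1b, which encodes the inhibitory receptor NKR-P1B, was at 338, 377 and 361 CPM in cKO against 201, 219 and 189 CPM in cWT. Both genes separate the genotypes by a wide gap, and for Klrb1b the adjusted p was 0.000121 (0.82 ± 0.10). Klra9, a member of the Ly49 family, averaged 1310 ± 120 CPM in cKO and 818 ± 103 CPM in cWT (0.68 ± 0.15, adjusted p = 0.0364). Reads of the Klra and Klrb1 genes can be counted for their close relatives, and Klra9 was called in 0 of the 6 fits with a library left out, Klrg1 in 1. All other tested members of the list, activating or inhibitory, were not called. Among the most abundant of them, Klrk1 (NKG2D) averaged 2460 ± 164 CPM in cKO and 2400 ± 127 CPM in cWT. Klrb1c (NK1.1) averaged 3670 ± 179 and 3540 ± 138 CPM in the same order.

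Adhesion and activating receptors outside that family held 1 call among 22, and it was lower. Crtam, an adhesion receptor of activated cytotoxic lymphocytes, was at 47.6, 48.7 and 42.0 CPM in cKO against 65.9, 80.1 and 91.2 CPM in cWT. The highest cKO library lies well below the lowest cWT library (log2 fold change -0.78 ± 0.10, adjusted p = 0.000185). The list median was -0.05. Among 28 cytokine receptor and signalling genes only Kit passed, and the abundant receptor genes Il2rb (2190 ± 241 CPM in cKO, 2130 ± 268 CPM in cWT) and Il2rg (2280 ± 65.1 and 2210 ± 183 CPM) had log2 fold changes of 0.04 each.

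Entpd1 encodes an enzyme that degrades extracellular ATP and ADP. It was at 121, 103 and 102 CPM in cKO against 45.7, 60.9 and 46.5 CPM in cWT, a log2 fold change of 1.09 ± 0.17 (2.13-fold, adjusted p = 0.0018). The groups are far apart beside the spread within them. Entpd1 was the only call among 12 genes of extracellular purine turnover, whose median was -0.04. Cd38, another ectoenzyme of the list, averaged 59.6 ± 3.67 CPM in cKO and 51.6 ± 1.84 CPM in cWT (0.21, adjusted p = 0.619). Kcnj8, Ptger4 and Gpc1, which are on none of the lists, are given here as further called genes. Kcnj8, which encodes the pore of an ATP-sensitive potassium channel, had 262, 206 and 196 CPM in cKO against 97.6, 119 and 96.0 CPM in cWT (1.09 ± 0.17, adjusted p = 0.00232). Ptger4, the prostaglandin E2 receptor EP4, was at 188, 165 and 128 CPM in cKO against 98.0, 103 and 93.7 CPM in cWT (0.71 ± 0.11, adjusted p = 0.00232). Gpc1, a cell surface heparan sulfate proteoglycan, was at 199, 191 and 153 CPM in cKO against 93.2, 117 and 93.5 CPM in cWT (0.84 ± 0.14, adjusted p = 0.00462). Replicate 1 was the highest cKO library for all 4 genes and replicate 2 the highest cWT library, and the genotypes stayed apart in each.

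Rgs1, Tnfaip3 and Dusp1, feedback inhibitors of activation, rose by less than 2-fold each. Rgs1, which shortens chemokine receptor signals by speeding GTP hydrolysis, was at 877, 887 and 895 CPM in cKO against 543, 548 and 526 CPM in cWT. The libraries of each group lie close together and the groups far apart, and the log2 fold change was 0.72 ± 0.09 (adjusted p = 0.00012). Tnfaip3, which encodes the NF-κB inhibitor A20, was at 148, 139 and 131 CPM in cKO against 102, 84.7 and 89.8 CPM in cWT (0.60 ± 0.10, adjusted p = 0.00335). Dusp1, a phosphatase that inactivates MAP kinases, averaged 911 ± 37.7 CPM in cKO and 673 ± 50.8 CPM in cWT (0.44 ± 0.09, adjusted p = 0.0161). They are the 3 calls among 26 immediate early and feedback genes, all higher, and the list's median was 0.22, beside 0.004 over all genes. Zfp36, which encodes an RNA-destabilising protein, averaged 1630 ± 149 CPM in cKO and 1240 ± 52 CPM in cWT (0.39, adjusted p = 0.181). Junb averaged 4970 ± 617 and 4440 ± 597 CPM in the same order (0.16, adjusted p = 0.762). Of 21 genes of the AP-1, BATF, MAF and CNC factors 0 were called by edgeR, with a median of 0.18.

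Lineage transcription factors changed in both directions, 3 higher and 2 lower of 35 tested (median 0.08). Irf8, a factor of NK and myeloid cells, was at 1601, 1676 and 1167 CPM in cKO against 961, 1110 and 726 CPM in cWT. Replicate 3 was the lowest library in each group, and the gap between the groups is narrow (0.67 ± 0.15, adjusted p = 0.0361). Zbtb16, which encodes PLZF of innate-like lymphocytes, was at 16.3, 11.9 and 8.88 CPM in cKO against 6.40, 5.15 and 5.97 CPM in cWT (1.08 ± 0.24, adjusted p = 0.0364). The lineage factors Tbx21 (947 ± 189 CPM in cKO, 839 ± 84.4 CPM in cWT) and Id2 (3300 ± 869 and 2810 ± 343 CPM) overlapped between the groups.

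Of 21 early and stem-like genes 7 were lower and 0 higher, and the list's median log2 fold change was -0.43. Tcf7, which encodes the factor TCF1, was at 163, 187 and 165 CPM in cKO against 290, 294 and 292 CPM in cWT. The cWT libraries differ by 1.65 CPM (SD), every cKO library lies far below them, and the log2 fold change was -0.77 ± 0.10 (adjusted p = 0.000198). Myb, a factor of progenitor cells, was at 8.34, 7.91 and 7.49 CPM in cKO against 13.2, 13.03 and 16.7 CPM in cWT (-0.86 ± 0.15, adjusted p = 0.00557). Kit, the stem cell factor receptor, was at 6.17, 6.52 and 5.73 CPM in cKO against 13.9, 14 and 12.8 CPM in cWT, which is 0.453 of the cWT level (adjusted p = 0.0126). Kit libraries lie close together in each group, so the genotypes are far apart for their spread. Cd27, a co-stimulatory receptor that marks the earlier stages, averaged 153 ± 17.6 CPM in cKO and 206 ± 14.2 CPM in cWT (-0.43 ± 0.09, adjusted p = 0.0169). Emb, a lactate transporter chaperone, averaged 200 ± 26.4 CPM in cKO and 307 ± 7.79 CPM in cWT, and the survival gene Bcl2 240 ± 18.2 and 305 ± 6.70 CPM in the same order.

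Members of that list which did not pass included Il7r, at 41.5, 49.0 and 40.1 CPM in cKO against 56.4, 56.4 and 67.5 CPM in cWT (-0.47 ± 0.16, adjusted p = 0.304), and Ltb, at 110, 161 and 176 CPM in cKO against 225, 165 and 196 CPM in cWT. Several of these genes are also active in T cells, whose markers had a median log2 fold change of -0.51 with 0 of 12 called. Cd3e was at 37.4, 46.5 and 39.98 CPM in cKO against 57.0, 45.3 and 50.8 CPM in cWT, so its groups overlap. The part of T cell RNA in the fall of the early genes was not tested.

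The late maturation list went the other way, with 3 higher (Gzmb, Klrg1 and Irf8) and 0 lower of 16, and a median of 0.39. Both lists, like the choice of this comparison, were drawn up with earlier results of these libraries known.

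**Figure D3:**
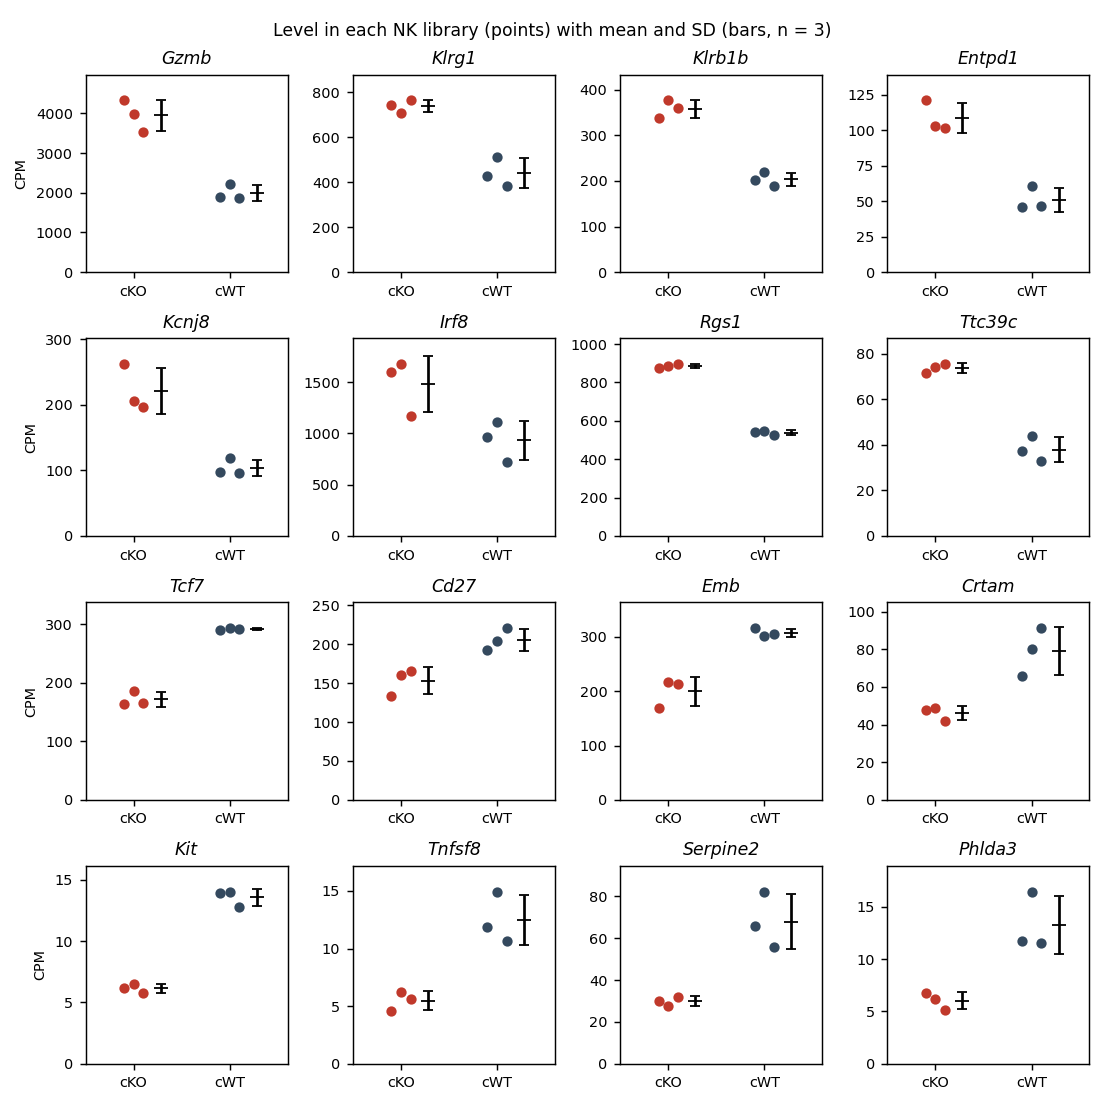
CPM in each NK library (points, y axes from 0) for 16 called genes, cKO left and cWT right in each panel, with the mean and SD as bars (n = 3). The upper 8 genes are higher in all cKO libraries, such as Gzmb at 3543 CPM or more against 2230 CPM or less, and the lower 8 are lower in all of them.

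Tumor necrosis factor family genes gave 1 higher (Fasl) and 2 lower (Tnfsf8 and Cd27) of 15, with a median of -0.14. Tnfsf8, the CD30 ligand, was at 4.57, 6.22 and 5.62 CPM in cKO against 11.9, 14.9 and 10.7 CPM in cWT. The groups are well apart, with a log2 fold change of -1.19 ± 0.20 (adjusted p = 0.00446). Of 12 protease inhibitor genes 1 was higher and 1 lower. Serpine2, which encodes the secreted inhibitor protease nexin-1, was at 30.2, 27.4 and 32.1 CPM in cKO against 66.0, 82.1 and 55.9 CPM in cWT (-1.18 ± 0.16, adjusted p = 0.000354). The intracellular Serpinb9 was higher, and the list median was 0.

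Among survival and growth genes, Phlda3, a p53 target that restrains AKT, was at 6.75, 6.17 and 5.14 CPM in cKO against 11.7, 16.4 and 11.5 CPM in cWT (-1.13 ± 0.20, adjusted p = 0.00549). Phlda3 and Bcl2 were the 2 calls, both lower, among 16 p53 target and survival genes, whose median was 0.08. Pik3ip1, an inhibitor of PI3 kinase, fell to 39.6 ± 2.64 CPM in cKO against 55.0 ± 1.83 CPM in cWT (adjusted p = 0.0233). Srm, the spermidine synthase gene, fell to 23.9 ± 2.87 CPM in cKO against 37.1 ± 1.57 CPM in cWT (adjusted p = 0.0115), and Heatr1, a ribosome biogenesis factor, to 10.8 ± 0.146 against 16.6 ± 1.54 CPM (adjusted p = 0.0296). Tk1, the thymidine kinase gene, was the only call among 28 cell cycle genes, at 11.4 ± 0.523 CPM in cKO and 17.6 ± 1.88 CPM in cWT, and the list median was -0.14. Tk1 was called in 0 of the 6 fits with a library left out. Of 16 glycolysis genes 0 were called by edgeR, and Ldha averaged 900 ± 62.3 CPM in cKO and 901 ± 88.7 CPM in cWT.

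Stress and interferon genes held few calls. Srxn1, which encodes the peroxiredoxin-reducing enzyme sulfiredoxin and carries 2 AP-1 core matches in the window printed above, was at 40.6, 32.1 and 30.8 CPM in cKO against 21.7, 26.7 and 22.2 CPM in cWT (0.55 ± 0.12, adjusted p = 0.0364). It was the only call among 16 heme and antioxidant genes (median -0.01). The abundant ferritin genes Fth1 (1170 ± 316 CPM in cKO, 1340 ± 340 CPM in cWT) and Ftl1 (1960 ± 382 and 2170 ± 437 CPM) overlapped between the groups. Of 24 interferon response genes Ifit2 and Ifi204 were higher and 0 lower, with a median of 0.01. Ifit2 was at 32.8, 32.8 and 30.8 CPM in cKO against 16.6, 21.5 and 22.7 CPM in cWT, and Ifi204 at 11.5, 13.8 and 10.9 CPM in cKO against 6.40, 6.30 and 3.60 CPM in cWT. Irf7, the interferon-inducible regulator, averaged 145 ± 13.1 CPM in cKO and 151 ± 6.75 CPM in cWT and did not pass the test.

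Other called genes had roles outside these lists. Ttc39c, a gene with tetratricopeptide repeats, was at 71.4, 74.3 and 75.4 CPM in cKO against 37.1, 43.9 and 32.8 CPM in cWT. It had the second smallest p of all genes (log2 fold change 0.96, adjusted p = 2.3e-05). The transcription factor genes Meis3 (48.2 ± 1.44 CPM in cKO, 31.6 ± 1.99 CPM in cWT), Klf6 (861 ± 74.8 and 683 ± 22.1 CPM) and Hic1 (6.39 ± 1.56 and 3.10 ± 0.572 CPM) rose. So did the stress sensor gene Gadd45b, at 66.3 ± 9.87 CPM in cKO and 44.2 ± 3.68 CPM in cWT, and the MAP kinase effector Rps6ka1, at 352 ± 67.7 and 248 ± 21.8 CPM. Aplp2, Camk2b, Cpne7, Cym, Heatr9, Lrrk1, Mta3, Ndnf, Smpdl3a and Trove2 rose by 1.27-fold to 2.13-fold. Among the lower genes were Igf2r, a receptor that carries lysosomal enzymes (34.3 ± 3.80 CPM in cKO, 51.6 ± 5.32 CPM in cWT), Cmah, an enzyme of sialic acid synthesis (62.7 ± 2.93 and 85.1 ± 6 CPM), and Gpr18, a G protein-coupled receptor (96.6 ± 11 and 136 ± 8.61 CPM). Capn3, Fam212b, Fastkd2, Fgf13, Klhl6, Nsg2, Plxnc1, Tex2, Wbscr27 and 1 predicted gene fell to between 0.309 and 0.785 of the cWT level.

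Some of the called genes had large folds at low levels. Cd209a, a lectin of dendritic cells, was at 4.48, 4.31 and 4.07 CPM in cKO against 1.82, 0.970 and 0.543 CPM in cWT (adjusted p = 0.0162). It was the only call among 13 myeloid and dendritic markers, which summed to 97.8 to 153 CPM in cKO and 92.1 to 169 CPM in cWT. Emp1, an epithelial membrane protein gene, was at 1.95, 2.33 and 3.80 CPM in cKO against 0.565, 0.909 and 0.937 CPM in cWT. Rgs13, a relative of Rgs1 known from germinal center B cells, had 6, 1 and 5 counts in cKO against 40, 26 and 32 in cWT, and the ceramidase gene Acer2 had 1, 10 and 11 against 28, 21 and 55. Rgs13 and Rgs1 are neighbours on chromosome 1 and moved in opposite directions (log2 fold changes -3.16 and 0.72). Chromosome 1 holds 12 of the 70 called genes (17.1%) and 712 of 12102 tested genes that could be placed (5.88%). Among the 12 are Rgs1, Serpine2, Phlda3, Gpc1, Bcl2 and Fasl. The strain background of the cKO and cWT animals is not given in the labels, and its part in these calls was not tested. Of those 12, 7 were also called in a sorted fraction, while of all 70 called genes 34 were called in none. In the chimeras, where Phlda3 and Rgs13 were not tested, 3 of the 12 were called in the same direction. Of all 70, 23 of the 37 higher and 15 of the 26 lower genes tested there were.

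Some called genes overlap another gene, and the strand used in counting is not given. Tcf7 overlaps Skp1a, Cd27 overlaps E130112N10Rik, and Igf2r overlaps Airn. Skp1a averaged 420 CPM in cKO and 456 CPM in cWT (log2 fold change -0.12, adjusted p = 0.839), and Airn 6.57 and 5.15 CPM in the same order (0.35, adjusted p = 0.819). Gpr18, Hic1, Pik3ip1 and Tk1 also lie over other genes, of which 0 were called.

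Whether the NK fraction differs from the sorted fractions was tested as the NK effect minus the mean effect in iNK, mNK1 and mNK2. The labels do not say that the NK fraction is made up of these 3. By edgeR 0 genes passed, with 465 at an unadjusted p under 0.05, and by DESeq2 0 with 492. Among the 70 genes, 22 were at an unadjusted p under 0.05 in that edgeR test, against 465 of all 12258 tested. The 70 were chosen by the NK effect, which is itself a term of that test. A raised count among them is therefore built in and is not a result. The smallest p among the 22, 0.000296 by edgeR, was that of Smyd2, a lysine methyltransferase gene. Smyd2 was at 4.04, 3.96 and 2.89 CPM in cKO NK against 8.85, 9.27 and 8.63 CPM in cWT NK. Its log2 fold change was -1.29 in NK against -0.14 in iNK, -0.64 in mNK1 and -0.37 in mNK2 (adjusted p of the difference 0.835).

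The fold changes in iNK, mNK1 and mNK2 stand side by side with those of the NK fraction. Of the 39 higher genes 9 were also called higher in iNK, where 0.212% of all genes were, 22 in mNK1 (0.383%) and 13 in mNK2 (0.131%). Of the 31 lower genes 2 were also called lower in iNK (0.0816% of all genes), 11 in mNK1 (0.188%) and 9 in mNK2 (0.131%). No gene was called in the opposite direction in these 3 comparisons. Replicate numbers recur across the fractions, and the labels do not say whether a number marks the same animal, so the fractions are not taken as separate evidence. For Ncr1, replicate 3 was the highest cWT library in the NK fraction and in each sorted fraction. The main fit was by group only, so it treats same-numbered libraries of different fractions as independent. Called in all 3 fractions were 9 genes (Gzmb, Ttc39c, Klrb1b, Rgs1, Tnfaip3, Klf6, Dusp1, Serpine2 and Phlda3), and 34 were called in none of them. The 11 genes shared with iNK fell to between 3 and 6 when any 1 of the 6 iNK libraries was left out, so the count of 9 depends on single libraries.

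The genes differ in where along the fractions they changed. Gzmb averaged 299, 2370 and 7890 CPM in cKO iNK, mNK1 and mNK2, against 204, 1140 and 4390 CPM in the same cWT fractions, with log2 fold changes of 0.55, 1.06 and 0.84. Entpd1 changed most in mNK1, with 45.2 ± 8.23 CPM in cKO against 12.2 ± 2.80 CPM in cWT (1.89 ± 0.18, adjusted p = 2.05e-06). Tcf7 was at 810 ± 105 CPM in cKO iNK and 799 ± 11.2 CPM in cWT iNK (log2 fold change 0.02), at 269 ± 8.63 and 378 ± 25.6 CPM in mNK1, and at 45.6 ± 7.88 and 100 ± 7.41 CPM in mNK2 (-1.14 ± 0.10, adjusted p = 1.5e-06). Kit had the same shape, with log2 fold changes of -0.10 in iNK, -1.19 in mNK1 and -1.72 in mNK2. Serpine2 differed by a similar amount in each, -1.14, -1.35 and -1.49. Dusp1 had its highest fold change in iNK (0.68, against 0.57 in mNK1 and 0.41 in mNK2). These differences between fractions were not tested one by one.

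In the mixed chimeras, where Bach2-KO and WT NK cells share a host and neither carries the Cre allele in its label, 23 of 37 higher genes tested there were called higher (2.64% of all genes tested there) and 15 of 26 lower genes called lower (2.36%). Gzmb averaged 2960 ± 370 CPM in KO and 1310 ± 142 CPM in WT cells (log2 fold change 1.17, adjusted p = 9.62e-08). Tcf7 averaged 27.7 ± 3.08 and 79.3 ± 10.8 CPM in the same order (-1.52), Entpd1 107 ± 12.9 and 53 ± 9.03 CPM (1.02), and Klrb1b had the largest fold of the 3 genes called in every knockout comparison (1.31, with Gzmb and Ttc39c as the others). The feedback genes Rgs1, Tnfaip3 and Dusp1 were not called there by edgeR. Their log2 fold changes were 0.40, -0.15 and 0.40, with adjusted p of 0.083, 0.709 and 0.739. Rgs1 averaged 53.5 CPM in KO and 40.8 CPM in WT cells, Tnfaip3 66 and 73.4 CPM, and Dusp1 37.4 and 28.5 CPM. Serpine2 averaged 4.24 and 2.32 CPM there. Its log2 fold change was 0.87 (adjusted p = 0.256), opposite in sign to the conditional animals and not called. For Rgs1, Dusp1 and Serpine2 these levels are far below those of the conditional NK libraries, though the experiments were scaled apart. The part of level in these differences was not tested. Camk2b, which encodes a calcium-dependent kinase, was called in opposite directions, 0.56 in the NK fraction and -4.25 in the chimeras.

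**Figure D4:**
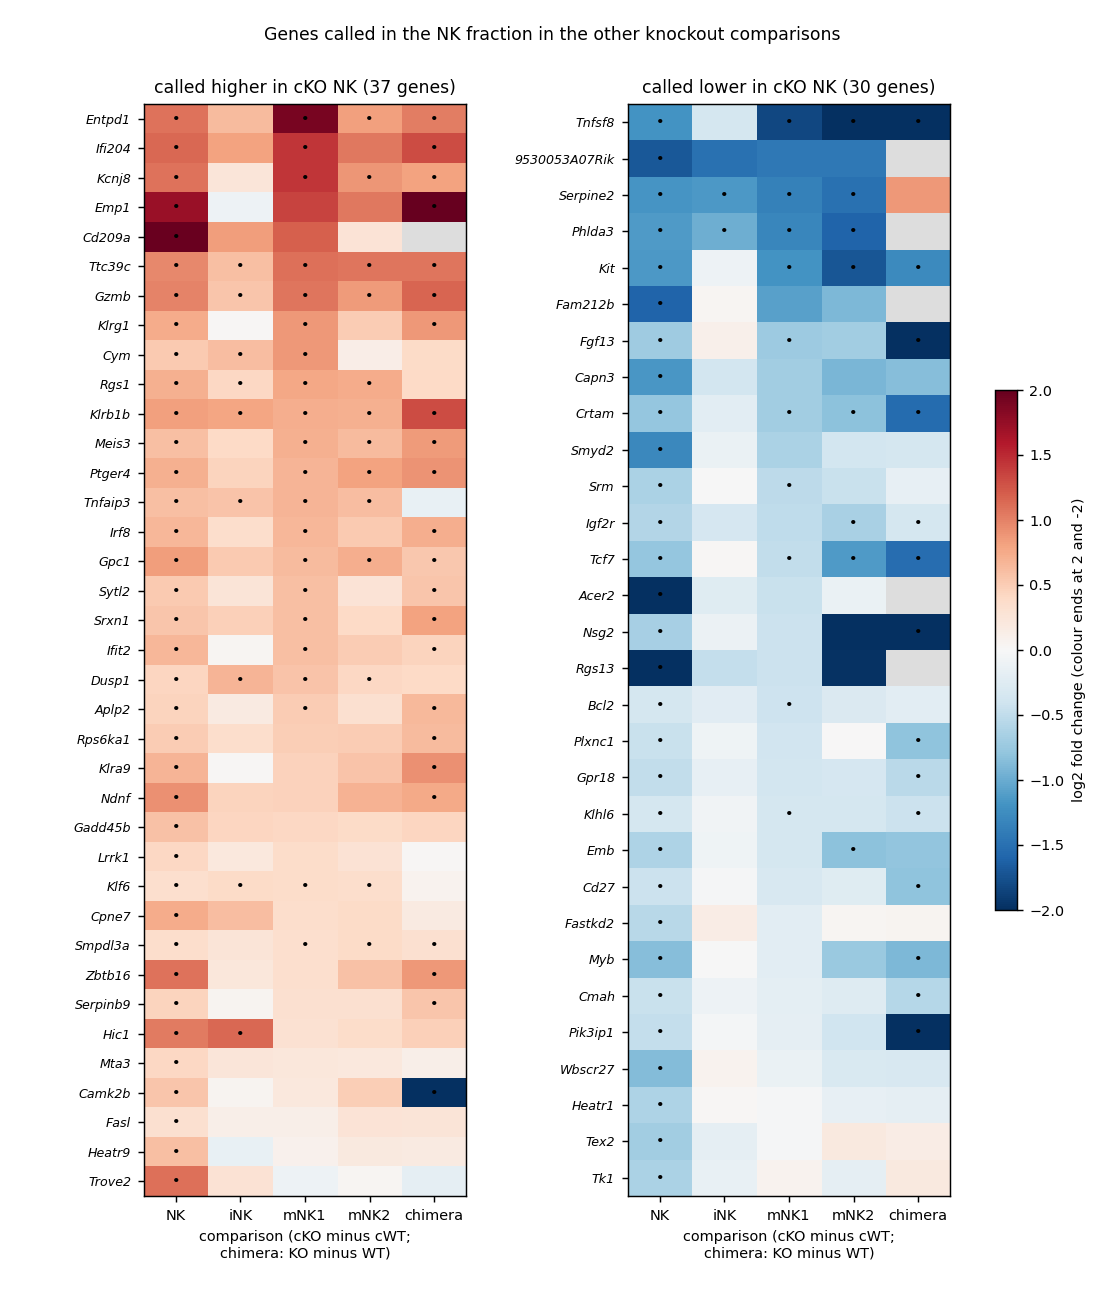
Log2 fold change of 37 higher (left) and 30 lower (right) genes in each knockout comparison (columns: cKO minus cWT in NK, iNK, mNK1 and mNK2, and KO minus WT in the chimeras). Dots mark genes called in that comparison, grey cells genes not tested there, and the colour ends at 2 and -2.

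Normal maturation was read from the WT animals as KLRG1+ mNK2 minus iNK. Of 36 higher genes tested there, 21 were higher in the late stage, as were 15% of all genes, and 3 were lower (Rgs1, Hic1 and Smpdl3a). Of 29 lower genes 22 were lower in the late stage, as were 15.6% of all genes, and Serpine2 was higher. The median log2 difference between the stages was 0.69 for the higher and -1.71 for the lower genes, beside -0.02 for all genes. Gzmb averaged 2140 ± 122 CPM in KLRG1+ mNK2 and 98.8 ± 24.4 CPM in iNK cells, Entpd1 121 ± 8.33 and 2.35 ± 1.03 CPM, and Tcf7 10.1 ± 1.72 and 330 ± 25.9 CPM (n = 4 each). Klrg1 is a sorting marker of these groups, so its difference there is not a finding. Ttc39c (0.49), Tnfaip3 (0.15), Dusp1 (-0.14) and Phlda3 (-0.49) were changed in cKO NK cells and were not called between the WT stages.

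**Figure D5:**
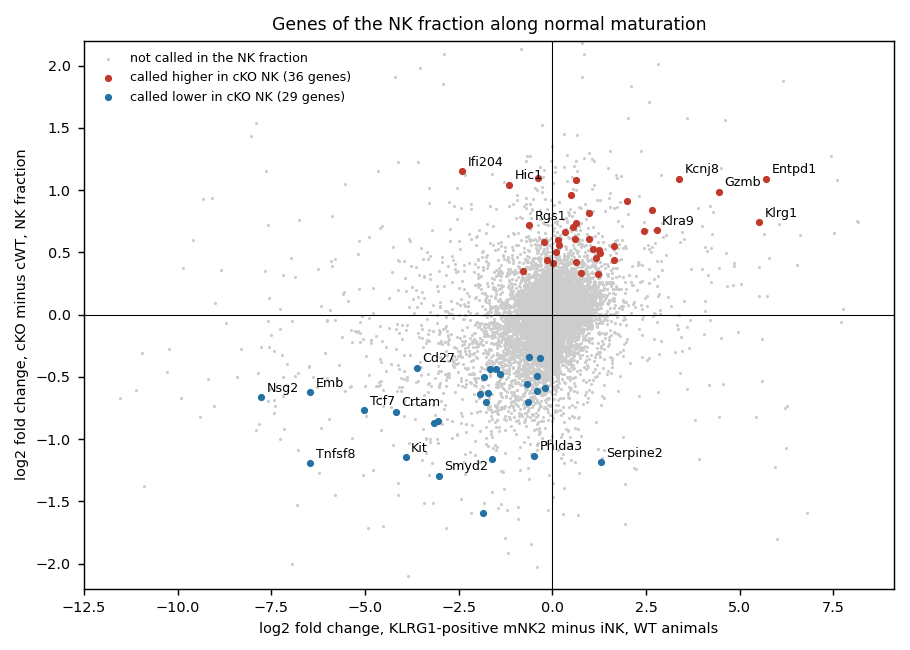
Log2 fold change in the NK fraction (cKO minus cWT, y axis) against the log2 difference between KLRG1+ mNK2 and iNK cells of WT animals (x axis), for genes tested in both, with the 36 higher and 29 lower called genes in colour; 12 genes lie outside the axes. Entpd1, Klrg1 and Gzmb sit at the upper right and Tnfsf8, Emb, Tcf7 and Kit at the lower left, while Serpine2 lies at the lower right and Rgs1, Hic1 and Ifi204 at the upper left.

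The level of the NK fraction relative to iNK, mNK1 and mNK2 gives a last description. For 59 of the 70 genes the cKO NK mean lay within the range of the cKO iNK, mNK1 and mNK2 means (70.2% of all genes did), and for 62 of the 70 the cWT NK mean lay within the cWT range (71.5%). Across the 70 genes the median absolute log2 distance of cKO NK from cKO mNK2 was 0.31 and from cKO mNK1 0.46. For cWT NK it was 0.47 from cWT mNK2 and 0.34 from cWT mNK1. Over all tested genes the same distances were 0.14 and 0.17 in cKO and 0.14 and 0.16 in cWT. The 70 genes were chosen by the difference between cKO NK and cWT NK, so their ranges and distances follow in part from that choice. These distances carry no test, and the share of each fraction among the sorted NK cells is not measured by the read counts.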

How the data were processed

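Per the labels' protocols, total RNA was taken up with a Qiagen RNeasy kit and turned into libraries by Clontech SMARTer. Reads were examined with FastQC and aligned with STAR 2.5.0, and the build named is mm9, per the submitters' processing notes. The deposited files hold whole-number read counts per gene symbol (24328 symbols); the counting program, annotation and strand setting are not given in the sources used here. Counts were used as deposited. The 24 conditional libraries were fitted together in 8 groups with edgeR 4.0.16 (R 4.3.3): TMM scaling, the filterByExpr rule, a robust quasi-likelihood F test with 16 residual degrees of freedom, and Benjamini-Hochberg adjustment over 12258 genes, with a call at an adjusted p under 0.05. The chimera and WT subset libraries were fitted apart, by group only, so KO and WT chimera libraries with the same number were not paired. CPM are scaled by TMM and not by gene length, so levels are compared within a gene. Limits from low counts cover counting error only. Log2 fold changes are cKO minus cWT ± SE. The labels do not say that replicates are separate animals, so p-values measure the spread between samples, which may be technical; 0 library pairs were identical. Open to naming were Bach2, the 3 marker genes, all called genes, and called members with up to 4 abundant members of 27 gene lists; Ncr1 is one of these. The comparison and lists were chosen with earlier results of these data known. Promoters and neighbours come from RefSeq (GRCm38.p6), matched by symbol. Alternatives were DESeq2 1.42.0, voom with quality weights in limma 3.58.1, RLE scaling, no filter, a 5 CPM filter, a replicate block, the 6 NK libraries alone, each library left out and, chosen after seeing the data, a ribosomal protein covariate. The main test was tested on simulated data. A few genes that enter the counts are not reported here by name.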

Additional observations from a re-analysis of the deposited data

Results flagged for a closer look

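Camk2b, a calcium-dependent kinase gene, moved one way in the NK fraction and the other way in the chimeras. It was at 77.6, 65.3 and 53.6 CPM in cKO NK libraries, against 41.2, 47.2 and 45.1 CPM in cWT NK libraries, a log2 fold change of 0.56 (edgeR, adjusted p = 0.0361). In the chimeras, KO minus WT, it was -4.25 (edgeR, adjusted p = 1.14e-12). Levels there ran from 1.96 to 3.78 CPM in KO and from 44.9 to 67.4 CPM in WT libraries. Both comparisons were called by edgeR in their own fits, every cKO library lay above every cWT library, and the difference between the 2 effects was not tested. The call in the NK fraction was kept in 1 of the 6 fits with a library left out and was lost with the 6 NK libraries alone. Camk2b also varied widely among libraries of a single WT group. It ranged from 16.8 to 57.6 CPM in WT iNK and from 20.2 to 81.1 CPM in WT mNK1. In WT KLRG1- and KLRG1+ mNK2 it ranged from 8.99 to 71.6 and from 11.3 to 69.3 CPM. The part of such variation in either comparison was not tested.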

How the results depend on the processing

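None of the 70 called genes changed sign under any alternative. The number of calls (70, with 39 higher and 31 lower) was 128 (69 and 59) by DESeq2, 65 higher by voom, and 177 (99 and 78) with the ribosomal protein covariate. It was 11 (8 and 3) with the 6 NK libraries alone and 10 (9 and 1) when these also had the replicate block. In the full fit the replicate block gave 85 calls (49 and 36). Residuals of same-numbered cKO and cWT libraries correlated at -0.237, 0.232 and 0.26, so the numbers were not taken as pairs across genotypes. These correlations do not cover same-numbered libraries of different fractions. With each library left out, calls ran from 36 to 69, of which 14 to 39 were higher and 22 to 30 lower. Without cKO replicate 2, 20 genes were higher, and 1 gene, H2-Ob (-1.06, adjusted p = 0.0285), differed between the NK and mean fraction effects, where 0 did otherwise. Genes also called in iNK (11) ran from 3 to 6 with an iNK library left out and genes also called in mNK1 (33) from 21 to 32 with an mNK1 library left out; in mNK2 (22) voom gave 42. Bach2 stayed uncalled under every alternative (log2 fold change 0.36 to 0.86). The cause of these shifts was not tested, except that fits with fewer libraries have fewer residual degrees of freedom. Rgs13 and Acer2 rest on few reads in the cKO libraries.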
